A study of Mus musculus with 95 samples.

Results

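White adipose tissue (WAT) of mice was set against cortex, kidney and liver, all taken at time 0 of the study. The WAT side was the 8 libraries whose labels give tissue WAT and treatment T0, of 32 time-0 libraries and 95 libraries in the series. The other side was the 24 time-0 libraries of cortex, kidney and liver, 8 per tissue, with equal weight for each tissue. All were C57BL/6J mice, an inbred laboratory strain, listed at 122 days of age in the count table. All were perfused with PBS before dissection. Each tissue had 4 libraries labelled M and 4 labelled F. The labels name no fat depot. The study itself asked what a torpor-like state, a spell of lowered metabolism and body temperature, does to aging mice. Its treated and control arms of 3 months enter here only in a repeat of the tissue comparison.

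White adipocytes store triglyceride in a large lipid droplet coated by perilipin. When energy is short, catecholamines act on beta-adrenergic receptors, cyclic AMP rises, and lipases on the droplet release fatty acids and glycerol. Insulin does the reverse: it slows lipolysis, brings the glucose transporter GLUT4 to the surface and raises lipid synthesis. The tissue also secretes hormones such as leptin and adiponectin, and between its fat cells lie progenitors, vessels, mesothelium, macrophages and collagen.

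Polyadenylated RNA was counted per gene, with 16030216 to 22921038 counts per WAT library, 15028653 to 22573153 in cortex, 14304253 to 20951969 in kidney and 15633658 to 22816521 in liver. Levels below are CPM, a gene's counts relative to the counts of its library, scaled between libraries by the TMM method. TMM centres a trimmed mean of the log ratios between libraries and assumes that most genes do not differ. Here 61.3% of genes were called, so other scalings are given below. Precision follows depth, and in CPM it also follows the TMM factors, which were 1.255 to 1.4575 in WAT and 0.501 to 0.712 in liver. With both, 3 counts over the 8 libraries of a tissue correspond to 0.015 CPM in WAT, 0.0162 CPM in cortex, 0.0199 CPM in kidney and 0.0352 CPM in liver. That floor is used for a gene with no count in a tissue, and it covers counting error only. Xist and Y-linked genes matched the M and F labels in all libraries.

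WAT replicate 6, labelled M, stood apart from the other WAT libraries. In it 386 genes exceeded 10 CPM and 10 times the level of every other WAT library, and they held 15.3% of its counts. Genes of the epididymis led them. Gpx5, a secreted epididymal glutathione peroxidase, reached 18116 CPM in replicate 6, against 0 to 17 CPM in the other 7 WAT libraries, and Lcn8, an epididymal lipocalin, reached 11893 CPM. The 17 genes of the epididymis list summed to 56942 CPM there. That was 7.53% of its counts, and the next highest WAT library, F replicate 3, had 0.00679%. Adipocyte genes were low in replicate 6: Adipoq had 942 CPM there, against 2407 to 3229 CPM in the other 7, and the lipid droplet list summed to 8332 CPM. The 8 libraries are kept below, and each count is also given without replicate 6 where that changes it by over 1.5 times or ends a call.

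**Figure D1:**
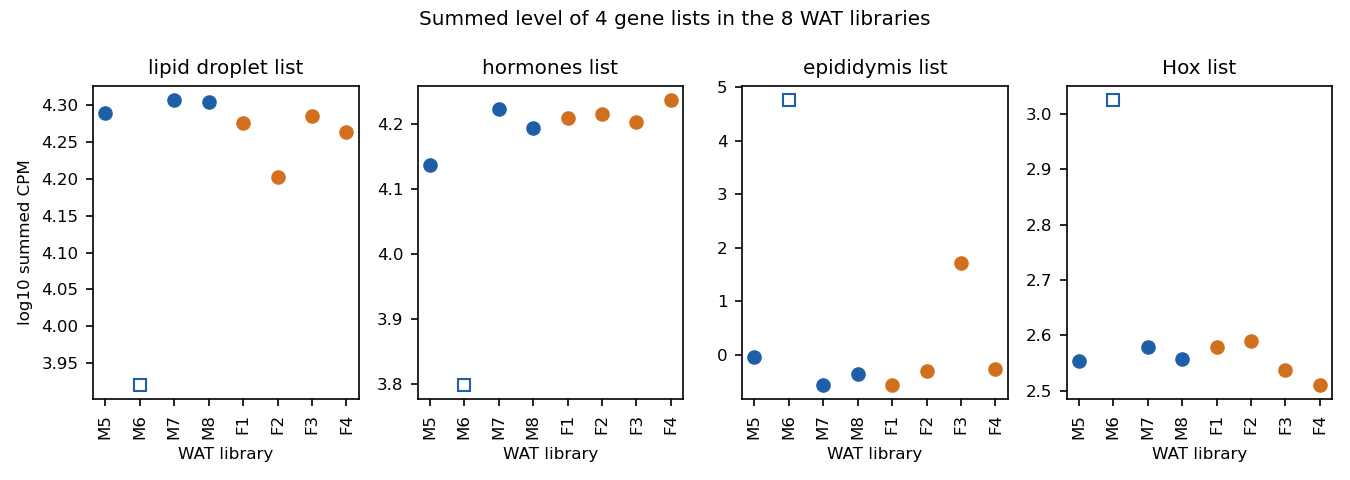
Summed CPM of 4 gene lists, on a log10 axis, in each of the 8 WAT libraries, M at left (blue) and F at right (orange), 1 point per library. The open square is M replicate 6, lowest for the lipid droplet and hormone lists and highest for the epididymis list, where it reaches 56942 CPM, and for the Hox list.

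WAT differed from the other tissues over most of its transcriptome. Of 19941 genes tested with edgeR's quasi-likelihood test, 12217 (61.3%) passed a threshold of 0.05 on the Benjamini-Hochberg adjusted p-value, 6988 (35.0%) higher and 5229 (26.2%) lower in WAT than in the equally weighted mean of the other 3 tissues. The median log2 fold change over all genes was -0.0004. The counts were 15579 (78.1%) against cortex, 13075 (65.6%) against kidney and 14041 (70.4%) against liver. By direction, 38.7% of all genes were higher and 39.4% lower against cortex, 33.8% and 31.8% against kidney, and 39.5% and 30.9% against liver. Counts of list members against a single tissue are read beside these shares. A stricter rule asked for a call and at least 4-fold in the same direction against each of the 3 tissues. It was met by 857 genes (4.3%) that were high in WAT and by 258 (1.29%) that were low. Without replicate 6 there were 908 high genes (4.47%), 832 of them shared, and 372 low genes (1.83%), 248 of them shared. For 683 of the 857 high genes every WAT library lay above all 24 others, as it did for 1085 genes (5.44%) in all, and for 112 of the 258 low genes every WAT library lay below, as for 317 (1.59%) in all. Of the 857 high genes, 686 are annotated as protein coding, 54 as long intergenic noncoding RNAs and 39 as antisense RNAs. Without stranded counting on record, reads of an antisense gene and its partner cannot be told apart.

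Hormone genes stood among those furthest from the other tissues, and Lep had the largest smallest fold of the named genes. Leptin (Lep), the satiety hormone of fat, lay at 512 to 2009 CPM with a median of 632 in WAT, against 0 in all 8 cortex libraries, 0 to 1.58 CPM in kidney and 0 to 0.107 CPM in liver. No library of another tissue came near a WAT library. The WAT mean was at least 52710.5-fold higher than the cortex floor and 1461-fold higher than kidney, where the log2 fold change was 10.50 (SE 0.595, adjusted p = 3.7e-12). Adiponectin (Adipoq), which raises insulin sensitivity, had 942 to 3229 CPM with a median of 2607 in WAT, against at most 0.112 CPM in cortex, 3.14 to 14.3 CPM in kidney and at most 1.63 CPM in liver. Its lowest WAT value is that of replicate 6, which still exceeded every kidney library. Against kidney its log2 fold change was 8.65 (SE 0.483, adjusted p = 5.4e-15). Complement factor D (Cfd, adipsin), a serine protease of the alternative complement pathway, lay at 2766 to 10946 CPM with a median of 9041 in WAT, at most 0.0424 CPM in cortex, 16.6 to 127 CPM in kidney and at most 14 CPM in liver. Per kb of exon Cfd had the highest mean level of all genes high in WAT, 8972 CPM per kb, followed by Gsn at 2657, Fabp4 at 2165 and Adipoq at 1781 CPM per kb. Resistin (Retn), an adipocyte hormone in mice, averaged 1334 ± 424 CPM in WAT, 0.439 ± 0.232 in cortex, 4.51 ± 2.48 in kidney and 0.144 ± 0.151 in liver (SD, n = 8 each).

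Of 24 tested genes of the hormone list, 22 were higher in WAT, 0 lower, and Nampt and Serpina12 did not pass. The median log2 fold change of the list was 3.52, against -0.0004 over all genes. 9 of them met the 4-fold rule against each tissue, among them Adipoq, Lep, Retn, Cfd, Sfrp5, Fbn1, C1qtnf1 and C1qtnf9. In bulk tissue, more cells of a type and more RNA per cell cannot be told apart in these values.

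**Figure D2:**
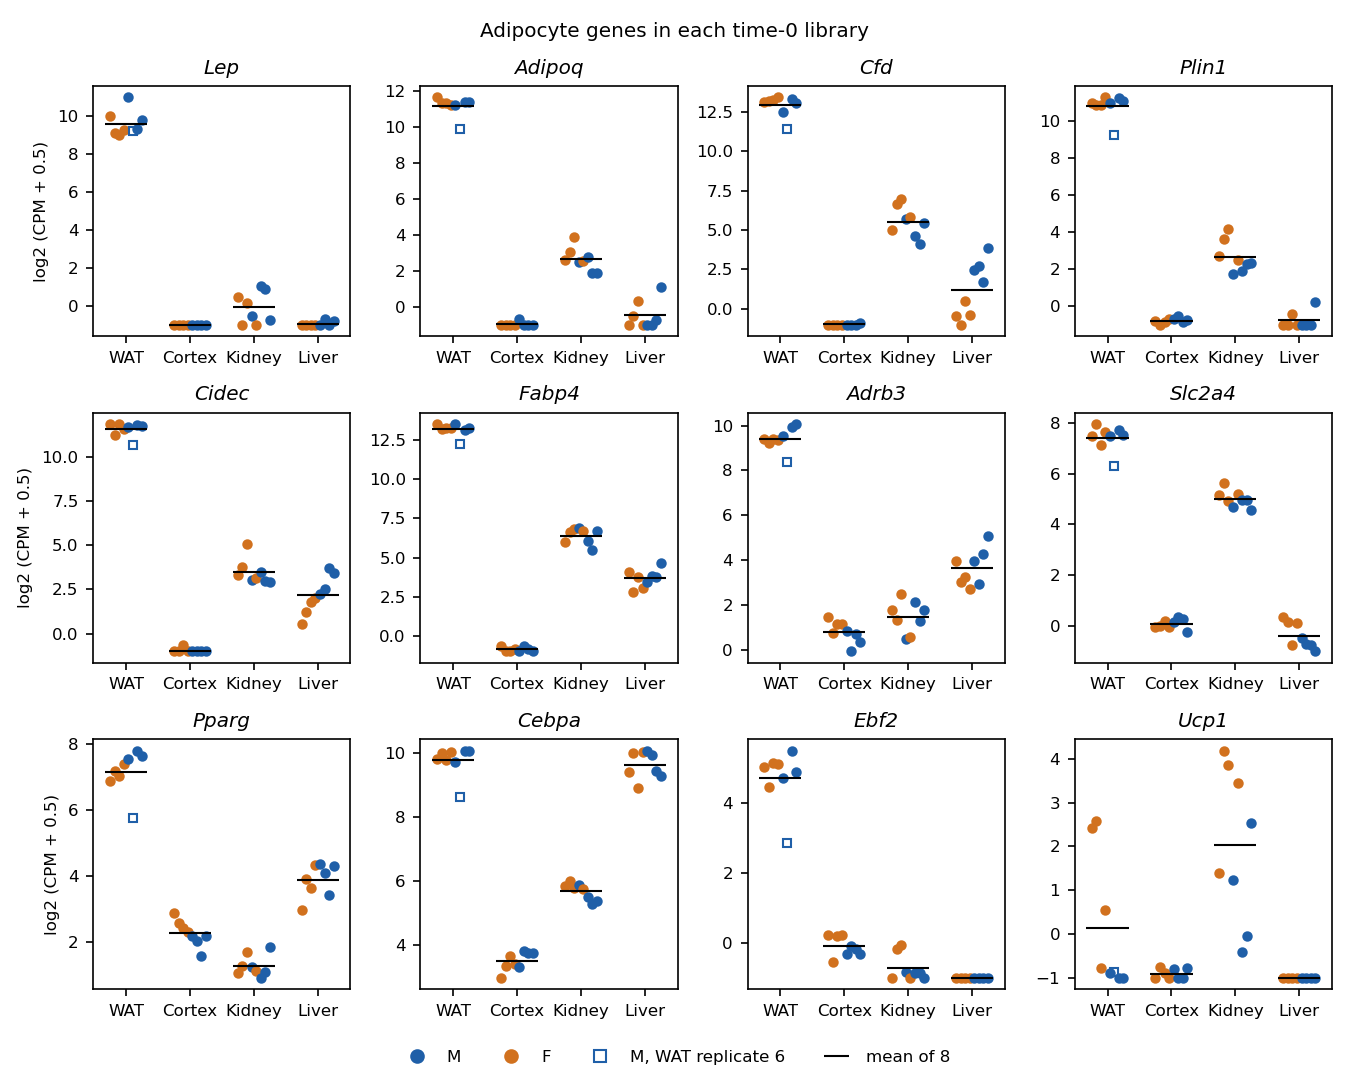
log2 (CPM + 0.5) of 12 adipocyte genes in the 8 time-0 libraries of WAT, cortex, kidney and liver, 1 point per library, blue for M and orange for F, with the mean of 8 as a bar. WAT replicate 6 is the open square. WAT lies above every other library for 10 of the genes, while Cebpa overlaps liver and Ucp1 is highest in kidney.

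Of the 857 high genes, of all kinds, the smallest of the 3 folds was against kidney for 402, against cortex for 276 and against liver for 179. Which tissue was nearest differed between lists: the median log2 fold change of the hormone list was 5.57 against cortex, 3.06 against kidney and 3.82 against liver, and that of the lipid droplet list 4.73 against cortex, 2.21 against kidney and 1.34 against liver. All 8 kidney libraries held Adipoq (3.14 to 14.3 CPM), Plin1 (2.81 to 17.5 CPM) and Cfd (16.6 to 127 CPM), and their Ucp1 level ran from 0.247 to 17.7 CPM. The part of these adipocyte transcripts in the folds against kidney was not tested.

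Genes of the lipid droplet and of lipolysis were high in WAT as a group. Of 23 droplet genes, 19 were higher, 2 lower (Cideb and Hsd17b11) and 2 did not pass, with a list median of 2.47. Perilipin 1 (Plin1), which guards the droplet surface, had 604 to 2433 CPM with a median of 1963 in WAT, 0 to 0.179 CPM in cortex, 2.81 to 17.5 CPM in kidney and 0 to 0.666 CPM in liver. The groups did not overlap, and the log2 fold change against kidney was 8.26 (SE 0.393, adjusted p = 1.34e-17). Cidec, which fuses droplets into larger ones, reached 1601 to 3670.3 CPM with a median of 3344 in WAT, at most 0.131 CPM in cortex, 7.13 to 33.3 CPM in kidney and 0.98 to 12.5 CPM in liver. Both lipases of the droplet were also high. Adipose triglyceride lipase (Pnpla2) averaged 2326 ± 568 CPM in WAT, 19.8 ± 3.43 in cortex, 167 ± 21.4 in kidney and 158 ± 46.4 in liver, a log2 fold change of 4.85 (SE 0.135, adjusted p = 1.82e-23) over the mean of the 3 tissues. Hormone-sensitive lipase (Lipe) averaged 1728 ± 381 CPM in WAT, 8.46 ± 1 in cortex, 34.7 ± 6.65 in kidney and 31 ± 5.8 in liver, with a log2 fold change of 6.37 (SE 0.12, adjusted p = 5.71e-27). All 8 WAT libraries lay above all 24 others for both.

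Receptors that speed or slow lipolysis followed. Of 25 signalling genes 18 were higher, 2 lower and 5 did not pass, with a median of 2.81. The beta-3 adrenergic receptor (Adrb3) lay at 333 to 1079 CPM with a median of 677 in WAT, against 0.449 to 2.23 CPM in cortex, 0.893 to 5.16 CPM in kidney and 6.01 to 32.7 CPM in liver, and its log2 fold change was 7.68 (SE 0.241, adjusted p = 3.44e-22). Adrb1, the beta-1 receptor, averaged 4 ± 1.54 CPM in WAT, 38 ± 2.55 in cortex, 2.39 ± 1.22 in kidney and 1.06 ± 0.76 in liver and did not pass (log2 fold change -0.18, adjusted p = 0.527). The corticotropin receptor Mc2r, which drives lipolysis in mouse fat, averaged 15.7 ± 5.61 CPM in WAT and had no count in cortex or liver, at least 971-fold higher than the cortex floor and at least 446-fold higher than the liver floor. Receptors that slow lipolysis were high as well: Ffar2, a short-chain fatty acid receptor, averaged 50.1 ± 9.28 CPM in WAT and 0.292 ± 0.201 CPM in kidney, and the niacin receptor Hcar2 18.1 ± 10.6 CPM in WAT and 0.13 ± 0.169 CPM in kidney.

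For uptake and synthesis of lipid, the result differed from enzyme to enzyme and depended on the tissue it was set against. Of 19 uptake genes, 10 were higher and 8 lower, and against liver alone 7 were higher and 7 lower. Over all genes 35.0% were higher and 26.2% lower than the mean of the 3 tissues. Lipoprotein lipase (Lpl), which frees fatty acids from circulating triglyceride, averaged 7617 ± 1940.4 CPM in WAT, 21.1 ± 1.78 in cortex, 1073 ± 362 in kidney and 62.4 ± 28.3 in liver (log2 fold change 6.11, SE 0.154, adjusted p = 1.94e-24). The fatty acid transporter Cd36 averaged 2308 ± 731 CPM in WAT, 0.332 ± 0.143 in cortex, 217 ± 142 in kidney and 106 ± 59.7 in liver. Slc27a2, the transport protein of liver and kidney, was lower, at 1.37 ± 2.33 CPM in WAT, 4.09 ± 0.774 in cortex, 3181 ± 713 in kidney and 2007 ± 335 in liver. Of 20 triglyceride synthesis genes, 15 were higher and 4 lower, and of 22 fatty acid synthesis genes, 15 higher and 3 lower. Against liver alone 11 triglyceride synthesis genes were higher and 5 lower, with a median of 0.78. Against liver 10 fatty acid synthesis genes were higher and 7 lower, with a median of 0.09. Over all genes 39.5% were higher and 30.9% lower against liver, with a median of 0.22.

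Fatty acid synthase (Fasn), which builds palmitate, varied widely between libraries, with 2378, 1072, 2456 and 2432 CPM in the M and 750.4, 8605, 697 and 6279.6 CPM in the F libraries of WAT, against 221 to 268 CPM in cortex, 76.7 to 229.9 CPM in kidney and 382 to 1104 CPM in liver. A pair of F libraries (750.4 and 697 CPM) and M replicate 6 (1072 CPM) lay within the liver range, so WAT and liver overlapped. The other pair of F libraries lay far above it. Its log2 fold change was 3.48 (SE 0.258, adjusted p = 4.34e-13) over the 3 tissues and 2.21 (SE 0.364, adjusted p = 3.16e-06) against liver alone. Stearoyl-CoA desaturase 1 (Scd1), which makes monounsaturated fatty acids, ran from 4364 to 21989 CPM with a median of 13064 in WAT and from 1104 to 7945 CPM with a median of 4256 in liver. Thrsp, a lipogenic regulator, and Cebpa did not differ from liver by the test: Thrsp averaged 831 ± 523 CPM in WAT and 767 ± 339.8 in liver (log2 fold change 0.15, SE 0.331, adjusted p = 0.733), and Cebpa 907 ± 224 CPM in WAT and 824 ± 229 in liver (log2 fold change 0.14, SE 0.18, adjusted p = 0.525). Pck1, which supplies glycerol 3-phosphate in fat and glucose in liver and kidney, averaged 2093 ± 936 CPM in WAT, 0.15 ± 0.337 in cortex, 2065 ± 749.8 in kidney and 3821 ± 551 in liver. Carbonic anhydrase 3 (Car3) averaged 13834 ± 4037 CPM in WAT and 4302 ± 2622 in liver (log2 fold change 1.83, SE 0.279, adjusted p = 9.46e-07). Over all genes the median log2 fold change against liver was 0.22, so small differences from liver are read against that.

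The insulin and glucose list had 18 of 24 members higher, 2 lower (Enpp1 and Grb14, both inhibitors of the insulin receptor) and 4 that did not pass, with a median of 1.06. GLUT4 (Slc2a4) lay at 77.5 to 248 CPM with a median of 182 in WAT, 0.339 to 0.763 CPM in cortex, 22.9 to 49.4 CPM in kidney and 0 to 0.762 CPM in liver. WAT and kidney did not overlap, and the log2 fold change between them was 2.44 (SE 0.188, adjusted p = 1.09e-12). Trarg1, which travels with GLUT4, averaged 342 ± 94.6 CPM in WAT and 2.28 ± 0.688 in kidney. Irs3, an insulin receptor substrate of rodent fat, averaged 56.6 ± 17.6 CPM in WAT, 0.171 ± 0.238 in cortex, 2.43 ± 0.557 in kidney and 0.225 ± 0.174 in liver. Breakdown of branched-chain amino acids gave 10 of 20 genes higher and 3 lower, and the median was 0.27. Against cortex there were 17 higher and 3 lower, beside 38.7% and 39.4% of all genes. Against kidney it was 5 higher and 11 lower, beside 33.8% and 31.8%. Against liver it was 4 higher and 10 lower, beside 39.5% and 30.9%.

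Within gene families, WAT used particular members. Per kb of exon, Fabp4, the fatty acid binding protein of adipocytes, averaged 2165 CPM per kb in WAT, against 0.00975 in cortex, 19.6 in kidney and 2.92 in liver, and Fabp5 26.8 CPM per kb in WAT. Fabp1, the form of liver, averaged 0.493 CPM per kb in WAT and 18046 in liver, and Fabp3, the form of heart and muscle, 1.2 in WAT and 86.4 in kidney. All 5 perilipins were higher in WAT than in the mean of the logs of the other tissues, with Plin4 (448 CPM per kb) and Plin1 (406) the most abundant there. In liver Plin2 was, at 176 CPM per kb, against 66.3 in WAT, and Plin5 had 3.72 in WAT and 25.7 in liver. Cidec had 1648 CPM per kb in WAT and 2.79 in liver, while Cideb, which works on liver lipoproteins, had 0.507 in WAT and 317 in liver. Among hexokinases Hk2, the form of insulin-responsive tissue, had 17.2 CPM per kb in WAT and at most 0.533 elsewhere. Hk1 had 4.84 in WAT and 47.2 in cortex. Acsl1, an acyl-CoA synthetase, had 117 CPM per kb in WAT and 98.6 in liver, where Acsl5 had 106, against 11.9 in WAT. No gene of the 7-member Elovl family was higher in WAT by the test. Elovl1 had a log2 fold change of -0.12 that did not pass (adjusted p = 0.279), and its sign turned with upper-quartile scaling and with no scaling.

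**Figure D3:**
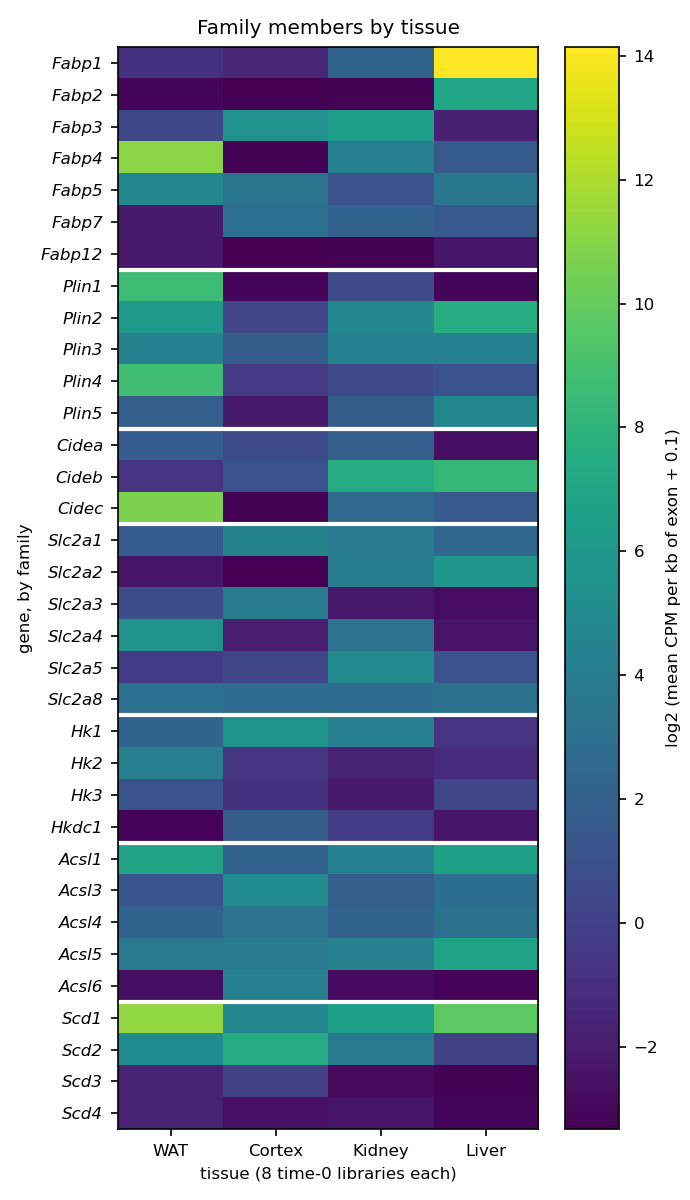
Mean level per kb of exon, as log2 (CPM per kb + 0.1), of members of 7 gene families (rows, white lines between families) in WAT, cortex, kidney and liver (columns, 8 libraries each). WAT is brightest in Fabp4, Plin1, Plin4, Cidec, Slc2a4, Hk2, Acsl1 and Scd1.

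Regulators of fat cell formation were more mixed. Of 32 genes, 23 were higher, 3 lower (Rxrb, Ppara and Ppargc1b) and 6 did not pass, with a median of 1.48. Pparg, the master regulator of adipocyte formation, lay at 53.8 to 221 CPM with a median of 156 in WAT, 2.48 to 6.77 CPM in cortex, 1.38 to 3.12 CPM in kidney and 7.29 to 20 CPM in liver, a log2 fold change of 4.91 (SE 0.165, adjusted p = 1.67e-21). Cebpa, its partner, lay at 398 to 1080.4 CPM with a median of 969 in WAT and at 479 to 1070.4 CPM with a median of 837 in liver, so those tissues overlapped. The early B cell factors, which act before Pparg in adipocyte formation, were high: Ebf2 averaged 28.5 ± 11.2 CPM in WAT, 0.451 ± 0.196 in cortex, 0.127 ± 0.187 in kidney and had no count in liver, and Ebf3 averaged 21.3 ± 6.75 CPM in WAT and at most 0.527 CPM elsewhere.

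The promoters of the 3 genes of the hormone and droplet lists whose smallest fold between tissues was highest show what the sequence in front of such a gene looks like. Each window is the RefSeq promoter of build GRCm38.p6, 250 bases before to 50 after the start, 5′ to 3′, and capitals mark motif matches on either strand. The motifs searched were TTGCNNAA, the core bound by C/EBP factors, then CCAAT for the CCAAT box of that name, the GC box written GGGCGG by its letters, the TATA box with the letters TATAAA alone, and DR1, a direct repeat read by PPAR with RXR.
Lep (chr6:29059971-29060270, plus strand): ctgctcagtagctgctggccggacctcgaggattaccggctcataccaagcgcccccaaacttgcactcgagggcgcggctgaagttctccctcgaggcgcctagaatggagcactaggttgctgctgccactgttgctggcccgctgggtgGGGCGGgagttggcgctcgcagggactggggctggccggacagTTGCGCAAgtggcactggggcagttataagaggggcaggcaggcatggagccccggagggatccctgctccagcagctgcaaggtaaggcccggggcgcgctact
Adipoq (chr16:23146286-23146585, plus strand): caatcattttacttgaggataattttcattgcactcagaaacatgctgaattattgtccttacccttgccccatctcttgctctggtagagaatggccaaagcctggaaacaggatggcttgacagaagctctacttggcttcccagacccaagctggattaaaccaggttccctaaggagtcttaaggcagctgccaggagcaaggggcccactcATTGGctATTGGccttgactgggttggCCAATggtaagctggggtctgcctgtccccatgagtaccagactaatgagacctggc
Plin1 (chr7:79732727-79733026, minus strand): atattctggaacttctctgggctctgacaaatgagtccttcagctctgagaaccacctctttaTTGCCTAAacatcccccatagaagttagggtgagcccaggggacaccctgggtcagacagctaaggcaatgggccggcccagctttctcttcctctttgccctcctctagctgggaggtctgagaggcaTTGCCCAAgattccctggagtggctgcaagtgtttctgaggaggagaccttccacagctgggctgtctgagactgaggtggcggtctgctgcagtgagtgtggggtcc
The Lep window holds a C/EBP core that starts 55 bases before the start site and a GC box 98 bases before it. The Plin1 window holds C/EBP cores 187 and 58 bases before the start, and the Adipoq window holds the CCAAT box 3 times, 34, 27 and 7 bases before it. These are the only matches in the 3 windows. Of 32851 promoter windows of this length, 10.8% hold the C/EBP core, 37.4% the CCAAT box, 35.7% the GC box, 13.6% the TATA box and 0.0396% DR1. A match is a description of the letters, not a site shown to be used. Of the 857 high genes 591 had a window, and no share is given for them as a group.

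Genes of brown fat, the heat-producing form, were called about as often as all genes: of 21 tested, 8 were higher and 6 lower, beside 35.0% higher and 26.2% lower of all genes. Ucp1, the uncoupling protein of brown fat, had 0.0374, 0.0472, 0 and 0 CPM in the M libraries and 4.86, 5.51, 0.0824 and 0.97 CPM in the F libraries of WAT. Kidney libraries held more, 0.247 to 17.7 CPM, and the log2 fold change against kidney was -4.02 (SE 0.807, adjusted p = 0.000124). Among the higher members was Ebf2, which white fat progenitors share, and Cox8b averaged 12.7 ± 10 CPM in WAT and 4.43 ± 4.65 in kidney. Ppargc1a, which drives mitochondrial genes, averaged 3.32 ± 1.74 CPM in WAT, 33.8 ± 3.1 in cortex, 49.3 ± 7.98 in kidney and 12.3 ± 5.92 in liver.

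The energy machinery of mitochondria was lower in WAT than in kidney and liver but not than in cortex. Of 28 respiratory chain genes, 0 were higher and 26 lower than the mean of the 3 tissues (0 higher and 22 lower without replicate 6), with a median of -0.72. Against cortex there were 17 higher and 0 lower, against kidney 0 higher and 28 lower and against liver 0 higher and 26 lower. Cox5a, a subunit of cytochrome oxidase, averaged 93.2 ± 24.7 CPM in WAT, 91.3 ± 11.4 in cortex, 326 ± 80 in kidney and 328 ± 77.4 in liver. Beta-oxidation genes too were mostly above cortex and below kidney and liver. Of 24, 23 were higher and 0 lower against cortex, 1 higher and 17 lower against kidney and 0 higher and 22 lower against liver. Their median was -0.52 against kidney and -1.68 against liver, where the respiratory chain list had -1.38 and -1.28. Ribosomal protein genes had a median of 0.17 over the 3 tissues, with 7 of 34 higher, but the tissues went opposite ways. Against cortex 33 higher and 0 lower gave a median of 1.49, against kidney 1 higher and 3 lower a median of -0.22 and against liver 0 higher and 24 lower a median of -0.65. The medians over the 3 tissues are read against the -0.0004 of all genes, which shifts by 0.49 if libraries are scaled by total counts alone and by 0.15 with upper-quartile scaling.

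**Figure D4:**
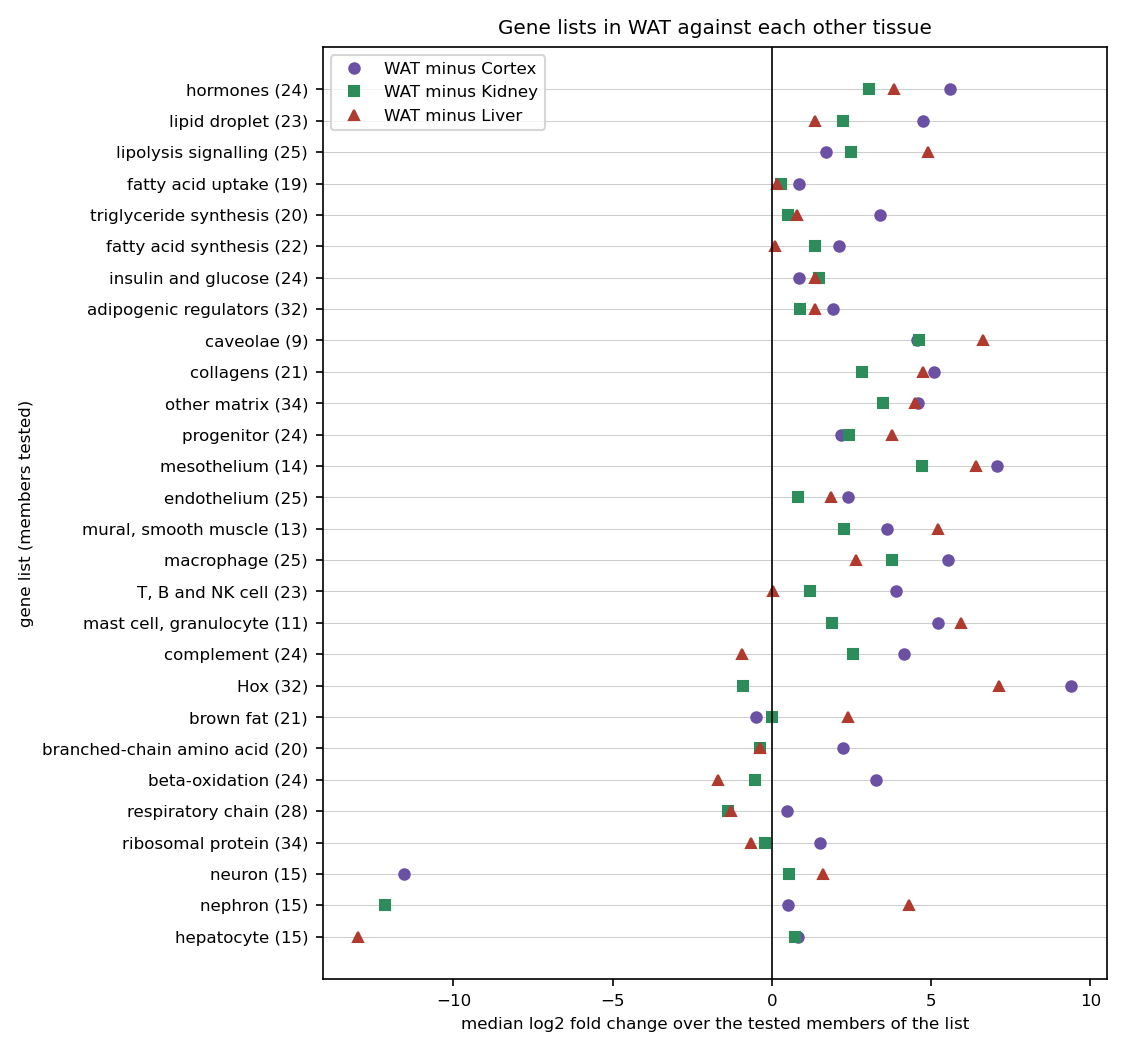
Median log2 fold change of WAT minus cortex (circles), minus kidney (squares) and minus liver (triangles) for 28 gene lists, with the number of tested members beside each name. Medians lie right of 0 against all 3 tissues for the hormone, droplet, caveola, matrix, mesothelium and macrophage lists, and far left against 1 tissue for the neuron, nephron and hepatocyte lists.

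Genes of the matrix and of caveolae, the membrane pits that cover adipocytes and endothelium, were higher nearly throughout. Of 21 collagen chains 20 were higher and 0 lower, with a median of 3.97, and all 34 of 34 other matrix genes were higher, with a median of 4.10. The fibrillar chain Col3a1 averaged 1332 ± 469 CPM in WAT, 1.68 ± 0.726 in cortex, 33.7 ± 9.6 in kidney and 30.9 ± 10.1 in liver (log2 fold change 6.77, SE 0.181, adjusted p = 7.24e-24). Nid1, a basement membrane linker, averaged 527 ± 178 CPM in WAT, 4.83 ± 1.09 in cortex, 24.1 ± 9.3 in kidney and 7.72 ± 1.74 in liver. Of 9 caveola genes 7 were higher and 1 lower, with a median of 5.21. Caveolin 1 (Cav1) averaged 1799 ± 571 CPM in WAT, 8.02 ± 1.23 in cortex, 22.7 ± 7.83 in kidney and 2.9 ± 1.2 in liver (log2 fold change 7.81, SE 0.188, adjusted p = 6.03e-25), and Cavin1, its coat partner, 1397 ± 289 CPM in WAT and at most 39.3 CPM elsewhere.

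Genes of the cells that lie between adipocytes were also high. Of 24 progenitor genes 23 were higher and 0 lower. Pi16, a marker of progenitors in the outer sheath of vessels and tissue, averaged 95.8 ± 44.4 CPM in WAT and 10.8 ± 2.44 in kidney, and Pdgfra, a receptor of fibroblasts and progenitors, 62.4 ± 23.3 CPM in WAT, 31.6 ± 2.05 in cortex, 17.7 ± 5.81 in kidney and 4.56 ± 1.08 in liver. Mesothelium, the lining of body cavities, gave 11 of 14 genes higher, 0 lower (1 without replicate 6), and a median of 5.65. Upk3b lay at 136 to 578 CPM with a median of 256 in WAT, against at most 0.0875 CPM in cortex, 7.82 in kidney and 3.67 in liver. Msln, mesothelin, lay at 43.6 to 185 CPM with a median of 77.6 in WAT and at no more than 3.03 CPM in the 24 other libraries. Endothelial genes were 22 of 25 higher with a median of 1.62, 2 did not pass, and 1 was lower, Prox1, a lymphatic and hepatic regulator, at 0.756 ± 0.888 CPM in WAT and 97.4 ± 31.4 in liver. Against kidney 16 endothelial genes were higher and 5 lower, beside 33.8% and 31.8% of all genes, with a median of 0.82. Their summed level overlapped, at 1003 to 2347 CPM in WAT and 1710 to 2126 CPM in kidney. All 13 mural and smooth muscle genes tested were higher, with Mcam at 391 ± 99 CPM in WAT and at most 17.3 CPM elsewhere.

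Macrophage genes were higher without exception, 25 of 25, with a median of 3.97. Retnla, a product of alternatively activated macrophages in mice, lay at 293 to 656 CPM with a median of 482 in WAT and had no count in cortex, at least 29259-fold higher than the cortex floor. Kidney had 0.572 to 3.21 CPM, a log2 fold change of 8.67 (SE 0.331, adjusted p = 2.85e-17). Cd209f and Cd209g, lectins of tissue macrophages in mice, were high in WAT, where Cd209f averaged 75.2 ± 24.6 CPM and Cd209g 32 ± 8.14 CPM, against means under 1 CPM in each other tissue. Reads of such paralogs can be split in counting, so their separate levels are uncertain. Mast cell genes were present at a low level: Mcpt4, a mast cell protease, averaged 13.9 ± 4.13 CPM in WAT, had no count in cortex or liver and 0 to 0.488 CPM in kidney. Of 23 lymphocyte genes 17 were higher and 2 lower (1 without replicate 6). Against liver it was 5 higher and 3 lower, beside 39.5% and 30.9% of all genes, with a median of 0.05. Against kidney 11 lymphocyte genes were higher and 1 lower. Their summed level ran from 113 to 666 CPM between WAT libraries. Complement genes gave 19 of 24 higher, with 19 higher and 4 lower against kidney and 9 higher and 14 lower against liver, the organ that makes most circulating complement.

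Markers of other tissues were summed in each WAT library, and their part in the results was not tested. Skeletal muscle genes summed to 63.9 to 90 CPM in WAT libraries, 102 to 135 in cortex, 37.6 to 94.2 in kidney and 27.3 to 55.6 in liver, with Acta1 at 48.2 ± 9.94 CPM in WAT. The 11 acinar pancreas genes summed to at most 0.247 CPM. The milk protein genes Csn2 and Wap stood at 0 in 7 of the 8 WAT libraries each, while keratin 14 (Krt14) ran from 0.312 to 54.6 CPM with its maximum in replicate 6. Of the 8 tested mammary epithelium genes 3 were higher and 0 lower in WAT with a median of 2.56, and without replicate 6 there were 2 higher and 2 lower with a median of -1.96. Of 8 female tract genes 5 were higher and 1 lower (3 higher and 2 lower without replicate 6). Their summed level was 80.8 to 289 CPM in the F and 45.4 to 109 CPM in the M libraries of WAT. Between M and F WAT, 0 of the 8 were higher and 3 lower in M, beside 3.03% lower of all genes. Without replicate 6 it was 0 and 5, beside 3.05% lower. Neuron genes summed to 28 to 109.6 CPM in WAT and 10784 to 12535 CPM in cortex, nephron genes to 7.49 to 85.2 CPM in WAT and 25251 to 71304 CPM in kidney, and hepatocyte genes to 1803 to 7158 CPM in WAT and 150158 to 253279 CPM in liver. All 15 neuron genes were lower than in cortex, all 15 nephron genes lower than in kidney and all 15 hepatocyte genes lower than in liver. Over the 3 tissues 2 hepatocyte genes were higher and 7 lower in WAT, and against kidney 7 were higher and 5 lower. Their sum in WAT was lowest in replicate 6, where the droplet list was lowest too. Whether it measures liver RNA in WAT was not tested.

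Some of the genes highest in WAT relative to every other tissue are little described. Ranked by the smallest of their 3 folds, the first 15 were Lep, Gm36860, Gm5460, 1700047G03Rik, Retnla, Adipoq, Cd209g, Ankef1, Apol6, Plin1, Retn, Aoc3, Plin4, Cidec and Lyz1. Gm36860, which has no entry in the annotation used here, lay at 14.3 to 63.3 CPM with a median of 38.1 in WAT, with no count in cortex or liver and at most 0.272 CPM in kidney. 1700047G03Rik, a long intergenic noncoding RNA (GRCm38 chromosome 15, 11964276 to 11970086, plus strand), lay at 2.88 to 44.6 CPM with a median of 8.66 in WAT and at no more than 0.105 CPM elsewhere. Ankef1, an ankyrin repeat protein (chromosome 2, 136501910 to 136562091, plus strand), lay at 43.7 to 192 CPM with a median of 147 in WAT and at most 0.67 CPM elsewhere. Apol6, an apolipoprotein L (chromosome 15, 77044729 to 77057106, plus strand), lay at 165 to 445 CPM with a median of 389 in WAT and at most 2.29 CPM elsewhere. Aoc3, a cell surface amine oxidase of adipocytes and smooth muscle, averaged 1092 ± 381 CPM in WAT and 3.91 ± 1.87 in kidney, and gamma-synuclein (Sncg) averaged 1079 ± 347 CPM in WAT, 1.42 ± 0.459 in cortex, 9.37 ± 3.17 in kidney and 0.53 ± 0.811 in liver. Of 23 growth and angiogenic factors 19 were higher in WAT and 1 lower (2 without replicate 6), with Inhbb, an activin subunit, at 62.9 ± 13.2 CPM in WAT, 6.91 ± 1.25 in cortex, 2.49 ± 1.4 in kidney and 1.38 ± 1.07 in liver. Of 23 steroid and thyroid genes 12 were higher and 4 lower, and the thyrotropin receptor Tshr lay at 29.9 to 151 CPM with a median of 118 in WAT, 0.0842 to 0.673 CPM in cortex, 0.878 to 2.45 CPM in kidney and 0 to 0 CPM in liver.

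No gene list held more than 2 of the 258 genes low in WAT against each tissue. Bdh1, which interconverts ketone bodies, averaged 1 ± 0.556 CPM in WAT, 45.2 ± 2.53 in cortex, 238 ± 16.3 in kidney and 397 ± 105 in liver, a log2 fold change of -7.35 (SE 0.217, adjusted p = 7.45e-23). Tmem25, a membrane protein, averaged 0.89 ± 0.436 CPM in WAT, 61.3 ± 4.61 in cortex, 71.9 ± 16.7 in kidney and 102 ± 28.3 in liver. Sall1, a developmental repressor, averaged 0.206 ± 0.343 CPM in WAT, 17.5 ± 2.45 in cortex, 47.4 ± 22.4 in kidney and 46.4 ± 31.9 in liver.

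Hox genes, which set position along the body axis, were higher in WAT than in cortex and liver, while most called against kidney were lower. Of 32 tested Hox genes 29 were higher in WAT and 0 lower, with 29 higher and 0 lower against cortex, 29 higher and 0 lower against liver and 4 higher and 15 lower against kidney. Of the list, 26 had no count in at least 1 tissue; with those tissues at their floor the list's median was 4.64, against 4.98 as fitted. Hoxc8 averaged 100.4 ± 44.1 CPM in WAT, 9.06 ± 1.58 in kidney, 0.0107 ± 0.0302 in liver and had no count in cortex, where WAT was at least 6196-fold higher than the floor. Wt1, a regulator of mesothelium and visceral fat progenitors, averaged 34 ± 18.5 CPM in WAT and 5.68 ± 2.05 in kidney. Tbx15, named for subcutaneous fat, averaged 0.105 ± 0.0858 CPM in WAT and 0.795 ± 0.334 in cortex and did not pass (adjusted p = 0.849, with a sign that turned when libraries were not scaled). Of 8 tested genes of a subcutaneous depot list 5 were higher and 0 lower, with a median of 3.93. Of 10 genes of a visceral depot list 9 were higher and 0 lower, with a median of 5.23. Over all genes 35.0% were higher. Which depot was taken was not tested.

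M and F WAT differed, and part of the calls rested on replicate 6. Of 19941 genes, 1519 (7.62%) were called between the 4 M and the 4 F libraries, 915 (4.59%) higher and 604 (3.03%) lower in M. Without replicate 6 there were 1047 calls of 20322 (5.15%), 428 (2.11%) higher and 619 (3.05%) lower, and 313 and 445 genes were shared with those of all 8 libraries. The joint fit takes its estimate of spread from all 32 libraries, and a fit of the WAT libraries alone called 283. Among the most strongly higher genes of M were Rnase10 and Lcn2, whose level came from replicate 6: Lcn2, an iron-binding lipocalin, had 5.13, 4088, 5.63 and 7.22 CPM in M and 0.399, 0.759, 5.15 and 0.208 CPM in F, and without replicate 6 its log2 fold change was 1.89 (adjusted p = 0.292).

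Several posterior Hox genes were near 0 in M WAT and present in F WAT. Hoxc10 had 0.337, 0, 0.16 and 1.11 CPM in the M libraries and 28.7, 27.3, 26.2 and 27.3 CPM in the F libraries, a log2 fold change of -6.07 (SE 0.493, adjusted p = 1.33e-08) and -5.70 (adjusted p = 4.87e-11) without replicate 6. Hoxa10 had 0.524, 1.7, 0.759 and 0.312 CPM in M and 20.5, 22.3, 20.1 and 17.7 CPM in F (log2 fold change -4.62, SE 0.384, adjusted p = 8.5e-08), and Hoxa9 1.16, 3.49, 0.399 and 0.891 CPM in M and 17.7, 20, 21.3 and 21.8 CPM in F (log2 fold change -3.78, SE 0.404, adjusted p = 3.2e-06). Hoxa11, Hoxa13, Hoxc9, Hoxc11, Hoxd10 and Hoxd11 were lower in M too, and Hoxa13, Hoxc11 and Hoxd11 had no count in M. Hoxa13 was at least 78.4-fold higher in F than the floor of 3 counts over the 4 M libraries. Other Hoxc genes were higher in M: Hoxc8 had 165, 80.3, 146 and 147 CPM in M and 70.9, 72.3, 56.4 and 65.5 CPM in F (log2 fold change 1.02, SE 0.207, adjusted p = 0.00358), and Hoxc4 23, 8.16, 28.6 and 21.3 CPM in M and 10.6, 8.54, 7.7 and 6.07 CPM in F (log2 fold change 1.30, SE 0.38, adjusted p = 0.0301). Every M library lay above every F library for Hoxc8, while M and F overlapped for Hoxc4. In all, 7 Hox genes were higher and 9 lower in M, and 3 and 11 without replicate 6. Hoxb6, Hoxb7 and Hoxb8 were called higher in M with all 8 libraries, and not without replicate 6. Hoxb6 had 5.05, 176, 5.55 and 6.29 CPM in M and 5.94, 6.27, 6.18 and 4.23 CPM in F, a log2 fold change of 3.09 (SE 0.854, adjusted p = 0.0288) that became -0.01 (adjusted p = 1) without it. Kidney libraries of both labels held Hoxc10 at 16.2 to 24.3 CPM. Hoxa9, Hoxa10, Hoxa13, Hoxb6, Hoxb7, Hoxb8, Hoxc4, Hoxc11, Hoxd10 and Hoxd11, and below Pgr, Hsd11b1, Grb14, Irs1, C7 and Lum, were named after their values were seen.

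Other differences lay in single genes, among them genes of steroid and insulin signalling and of stroma. Of the 23 tested steroid and thyroid genes 4 were higher and 3 lower in M, and 3 and 3 without replicate 6. Of the 24 insulin and glucose genes 2 were higher and 1 lower, and 1 and 1 without it. Over all genes 7.62% were called, and 5.15% without replicate 6, so the insulin genes named here do not stand for their list. Pgr, the progesterone receptor, had no count in the 4 M libraries and 1.2, 9.57, 12 and 7.8 CPM in F. Pgr and Hoxa11 belong to the female tract list, whose part in the M and F differences was not tested. Esr1, the estrogen receptor, had 28.5, 23.6, 47.1 and 34.1 CPM in M and 93.5, 79.2, 76.7 and 93.3 CPM in F (log2 fold change -1.36, SE 0.228, adjusted p = 0.000215). Hsd11b1, which regenerates active glucocorticoid, had 110.3, 35.9, 121 and 105 CPM in M and 12.7, 14.4, 10.8 and 12.7 CPM in F (log2 fold change 2.88, SE 0.293, adjusted p = 7.77e-08). Grb14, an inhibitor of the insulin receptor, had 59.5, 15.9, 27.5 and 45.3 CPM in M and 4.71, 9.11, 4.53 and 3.92 CPM in F (log2 fold change 2.73, SE 0.29, adjusted p = 1.48e-07), and Irs1, a substrate of that receptor, 38, 15.7, 45.5 and 48.2 CPM in M and 61, 103, 88 and 101 CPM in F (log2 fold change -1.26, SE 0.246, adjusted p = 0.00136). Sult1e1, which inactivates estrogens, had 47.9, 15.7, 43 and 50 CPM in M and 0, 0, 0.165 and 0.139 CPM in F, and C7, a terminal complement component, 88.4, 29.9, 134 and 98.6 CPM in M and 2.11, 2.13, 3.01 and 1.63 CPM in F (log2 fold change 5.30, SE 0.451, adjusted p = 2.29e-09). M and F did not overlap for any of these 6 genes after Pgr. Of all 19941 genes tested, 691 had every M library above every F library and 899 had every M library below. Tcf21, a regulator of mesenchymal progenitors, had 5.69, 5.09, 5.71 and 7.04 CPM in M and 15.1, 22.9, 28.3 and 17.1 CPM in F, and Lum, a proteoglycan of collagen fibrils, 37.9, 28.2, 74.1 and 63.4 CPM in M and 161, 168, 216 and 136 CPM in F (log2 fold change -1.74, SE 0.349, adjusted p = 0.00173). Nrn1, a secreted neuritin, had 0.524, 0.0943, 0.559 and 0.624 CPM in M and 20.9, 19.4, 18.3 and 31.6 CPM in F, and Trdn, a protein of muscle calcium stores, 0.561, 0.707, 0.28 and 0.446 CPM in M and 15.3, 17.4, 22.6 and 18 CPM in F.

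Adipocyte lists are read beside the 7.62% of all genes called between M and F. Of the 24 tested hormone genes 1 was higher and 1 lower in M, and without replicate 6, 2 were higher and 1 lower. Of the 23 droplet genes 0 were higher and 1 lower, and without replicate 6 none was called. Of 24 progenitor genes 0 were higher and 6 lower in M, and 0 and 5 without replicate 6. Leptin had 2009, 596, 644 and 884 CPM in M and 1014, 552, 512 and 619 CPM in F, which overlapped. The M minus F effect in WAT was also set against the mean of that effect in the other tissues, and 611 genes (3.06%) differed, 419 (2.1%) with a higher and 192 (0.963%) with a lower value in WAT. Without replicate 6 it was 547 genes (2.69%), and without F replicate 2, 3 or 4 it was 405, 399 or 394. A p that misses the threshold with 4 libraries a side does not show that these genes were alike.

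**Figure D5:**
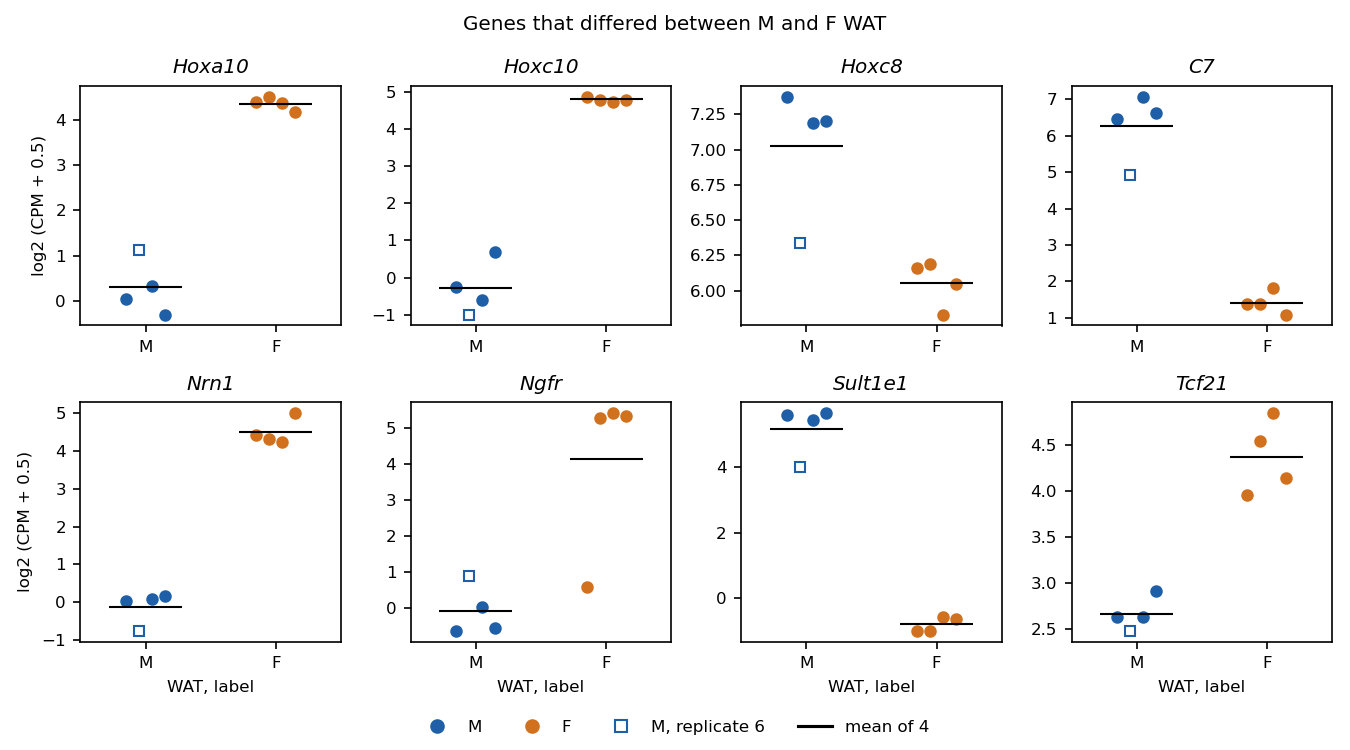
log2 (CPM + 0.5) of 8 genes in the 4 M (left, blue) and 4 F (right, orange) WAT libraries, with the mean as a bar and M replicate 6 as an open square. M and F do not overlap for 7 of the genes, while F replicate 1 lies among the M libraries for Ngfr. Of all 19941 genes tested, M lies wholly above F for 691 and wholly below for 899.

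The same tissue rule was applied to the animals of the later arms. In control animals it called 894 genes high and 298 low in WAT, in 31 libraries of which 7 were WAT. It shared 703 high genes with time 0, 82% of the time-0 list and 78.6% of the control list, and 186 low genes, 72.1% and 62.4%. In animals of the torpor-like state it called 842 high and 192 low, and shared 666 high genes, 77.7% of the time-0 list and 79.1% of the other, and 134 low genes, 51.9% and 69.8%. These libraries are of other animals, but the 3 fits share the rule, the tissues and the laboratory.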

How the data were processed

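Polyadenylated RNA of 4 tissues was sequenced on the Illumina platform, per the labels' protocols, and the authors deposited 1 table of whole-number counts per gene for 95 libraries. The submitters' processing notes name STAR 2.7.10 and the mouse build mm10. The table's first line calls the counts corrected, without saying what was corrected. The 32 time-0 libraries were grouped by the tissue and treatment labels, and each library is taken as a replicate. Nothing in the labels shows which time-0 libraries of different tissues came from 1 animal.

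Genes passed edgeR's filterByExpr with a minimum count of 10, which left 19941 genes and dropped 35460 rows. Counts were scaled by TMM and fitted with edgeR 4.0.16 (robust quasi-likelihood, R 4.3.3), with 1 coefficient for each tissue and M or F label. Contrasts were WAT minus the mean of the logs of the 3 other tissues, WAT minus each tissue, and M minus F in WAT. All p-values are Benjamini-Hochberg adjusted over all genes tested. Where every library of a tissue is at 0 the fitted fold depends on a prior count, so folds are given against a floor of 3 counts over the 8 libraries of that tissue (4 for M or F). CPM per kb uses exon lengths of GENCODE vM21, which held 53292 of 55291 symbols. Simulated data with known changes gave 87% of 2-fold and 100% of 4-fold changes back for WAT against the other tissues (19069 genes, 9 false calls). For M against F in WAT it was 59% and 94% (19071 genes, 7 false calls). Only 100 genes per fold were changed there, all with a mean of at least 1 CPM. Every other gene had the same mean in all 32 libraries, and no library stood apart as replicate 6 does. These shares therefore do not give the recovery or the false calls in the real data, where most genes differ between tissues.

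The genes, the 51 gene lists and the comparison were chosen with earlier results of these data known. Named genes were the 15 high genes with the largest smallest fold between tissues, the 10 highest per kb, the 10 low genes with the largest deficit, up to 4 called members with the largest change per list, all members of the families, the 6 largest changes each way between M and F and a short set of adipocyte genes. Named outside that rule, after their values were seen, were Gpx5, Lcn8, Csn2, Wap, Adrb1, Ppargc1a, the members listed as exceptions or as meeting the 4-fold rule, and the genes marked as such in the comparison of M and F. Alternatives were DESeq2 1.42.0, other scalings and filters, a replicate block and leaving out each WAT library. The sources used here do not say that each library is a separate animal, so p-values measure the spread between these libraries. Some named genes are not reported here.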

Additional observations from a re-analysis of the deposited data

Results flagged for a closer look

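In WAT replicate 6, labelled M, 35 of 89 examined values (the summed level of each gene list and the level of each of the leading genes over the 8 WAT libraries) lay far from the rest by Dixon's criterion, with a critical gap of 0.526 of the range. Chance marks about 1 group in 20 where groups are independent. The 89 values share genes and come from the same 8 libraries, so that rate is no reference for their number. All 35 marks fell on replicate 6. Its log2 summed CPM was the lowest of the 8 libraries for these lists: hormones 12.62, adipogenic regulators 10.69, lipid droplet 13.02, lipolysis signalling 11.04, fatty acid uptake 13.52, triglyceride synthesis 11.68, insulin and glucose 10.34, branched chain amino acid 10.34, caveolae 11.24, collagens 11.77, Schwann cell and nerve 7.27, growth and angiogenic factors 9.57, steroid receptors and enzymes 10.81, beta oxidation 11.17 and hepatocyte 10.82. It was the highest for these: epididymis 15.80, mammary epithelium 9.23 and Hox genes 10.05. By gene, its log2 CPM was the lowest for these: Gm5460 1.35, Adipoq 9.88, Cd209g 4.03, Ankef1 5.45, Plin1 9.24, Aoc3 8.33, Cfd 11.43, Fabp4 12.27, Pparg 5.75, Cebpa 8.64, Lipe 9.81, Pnpla2 10.12, Cd36 9.35 and Car3 12.13. It was the highest for these: Sall1 0.19, Ngef 2.54 and Car14 1.33. The epididymis list held 7.53% of the counts of replicate 6, and the part of those counts in the other values was not tested.

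For 3 of the genes named between M and F, the M minus F difference in WAT differed from the mean of that difference in the other tissues by edgeR's interaction contrast. The interaction, on the log2 scale, was -5.29 for Ngfr, a neurotrophin receptor (adjusted p = 0.000162), -4.93 for Nrn1 (adjusted p = 5.88e-08) and -3.61 for Lgr6, a receptor for R-spondins (adjusted p = 0.0448). All 4 M libraries lay below all 4 F libraries for Nrn1, while F replicate 1 lay among the M libraries for Ngfr.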

How the results depend on the processing

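Counts were recomputed under other scalings, filters and tests and without each WAT library, though not every alternative for every count: the genes with no overlap were recomputed with total counts alone and without each library, and the repeat in control animals has the torpor-like state as its alternative. Of the recomputed counts, 159 stayed within 1.5 times the value given and 14 did not. The call of WAT against the 3 tissues fell to 5063 genes when tested against a fold of 2. High genes numbered 1642 with a 2-fold and 472 with an 8-fold rule, low genes 506 and 119, and low genes 170 without scaling beyond total counts. M against F in WAT gave 283 genes from the WAT libraries alone and 997 among genes with at least 1 CPM in 4 WAT libraries. The 611 genes whose M minus F effect differed between WAT and the other tissues were 1307 with DESeq2, 218 with a replicate block and 304 with that block and kidney numbers 4 and 5 exchanged, an alternative added after seeing the data. The block was not fitted for M against F within WAT, it changed no other count it was fitted for by over 1.5 times, and the numbers were not taken as pairing: kidney libraries 4 and 5 carry the other M or F label than those numbers elsewhere, and same-numbered libraries of WAT and another tissue had a mean correlation of deviations of 0.011 (24 pairs, -0.129 to 0.218). Leaving out 1 WAT library gave 394 to 873 genes in place of the 611 (405, 399 and 394 without F replicates 2, 3 and 4), 1047 to 1950 for M against F in WAT, 875 to 908 high genes, 247 to 372 low genes and 1418 to 2057 genes with no overlap, where 2057 is without replicate 6.

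Scaling moved the median log2 fold change of all genes by 0.15 (upper-quartile) and 0.49 (total counts alone), and by -0.03 and -0.04 with RLE and DESeq2. Signs turned for Tbx15 (0.0346), Slc2a6 (0.34) and Elovl1 (0.38) with total counts alone, and for Elovl1 (0.0329) with upper-quartile scaling. Without replicate 6 they turned for Krt5, Elovl4 and Aqp9 against the other tissues and for Rnase10 and Ptpn5 between M and F: with 1 library left out, the log2 fold change ran from -1.56 to 3.93 for Krt5, -1.88 to 2.54 for Elovl4, -0.25 to 1.13 for Aqp9, -1.71 to 10.89 for Rnase10 and -10.87 to 1.75 for Ptpn5. The cause was not tested. Depth limits genes at or near 0 in a tissue, for which only a bound on the fold is given.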
